A study of Xenopus laevis with 6 samples.

Results

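Genes for basal bodies, centrioles and intraflagellar transport (IFT) were followed in cultured animal pole tissue of Xenopus laevis, a frog, comparing NICD-injected with untreated explants. They were chosen by a rule on gene symbols, with earlier results of these data known. With the copy suffix removed, a symbol had to begin with or equal 1 of a fixed set of names. Among these were the IFT, BBS, CEP, centrin, POC1, KIF3 and gamma-tubulin families and single genes such as ccno, myb, plk4, sass6, pcm1 and arl3. The rule found 45 of the 7531 gene symbols on the array, which stand for 42 gene names and 48 probe sets. Many genes of this species exist as a pair of homeologs, marked .L and .S; because the pair is alike in sequence, the probes for .L may pick up .S as well, and the reverse. Where a symbol had 2 probe sets, as cep97.L, cep95.L and cetn1.L had, the probe set with the higher mean signal stood for it. The names mcidas, deup1, stil, ttc8, ttc26, traf3ip1, arl13b, nphp, dzip1, pcnt, ccp110, fuz, intu, kif9, stk33 and stk36 of the rule matched no symbol of the array.

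NICD is the intracellular domain of the Notch receptor, which moves into the nucleus and turns on transcription there. There were 2 NICD samples, from injected embryos, and 4 untreated samples, called pooled explants in the series' design text. In both groups the animal pole tissue was cut at stage 8, a blastula stage, and kept in culture until siblings were at stage 20. No strain, construct or amount is given in the labels, and none of the samples carries a label for a control injection, so NICD and the act of injecting cannot be told apart.

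A multiciliated cell carries many motile cilia, each growing from its own basal body, which is a centriole docked at the cell surface. Cells with a single cilium make their centrioles by the ordinary duplication cycle; multiciliated cells make them in large numbers at once, with a set of proteins largely shared with that cycle. IFT is the train-like movement of protein complexes that carries building blocks along the growing cilium, and the BBSome is a complex that moves membrane proteins in and out of it. The skin of the Xenopus embryo forms multiciliated cells scattered among goblet cells and ionocytes, and Notch signalling is known to limit how many cells take the multiciliated fate there. Centrioles also organise the mitotic spindle, so many of these genes are used by dividing cells of every kind.

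Each sample was hybridised to 1 Affymetrix array, and values are MAS5 signals, a brightness per probe set on a linear scale. The median signal per array lay between 153.9 and 177.4. Changes are NICD minus untreated on the log2(signal + 32) scale with the standard error (SE) of the fit, tested with limma over 10368 probe sets and called at a Benjamini-Hochberg adjusted p under 0.05. Because 32 is added, changes at low signals are understated. The arrays were processed on 2 days: day 1 held NICD 1, untreated 1 and untreated 2, and day 2 held NICD 2, untreated 3 and untreated 4. Both NICD arrays ran in fluidics module 4 and the untreated arrays in modules 1 and 2, so the module cannot be told apart from the treatment. The gapdh control, whose 3' over 5' ratio is a sign of RNA quality, had a ratio of 4.21 in NICD 1 and 2.98 in NICD 2, against 2.7 to 3.54 in the untreated arrays. Whether the samples within a group stem from different experiments is not in the labels, so the p-values cover only the spread among these arrays, possibly technical, and the number of arrays limits the precision of every value. In these bulk samples fewer cells of a type and less RNA per cell cannot be told apart.

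Of the 45 genes, 38 had a signal high enough to be tested, and 16 of them fell in NICD explants while 0 rose. Fewer of the genes passed without NICD 2, as did fewer probe sets over the whole array. The median log2 change of the 38 genes was -0.43 on day 1, with NICD 1, and -0.95 on day 2, with NICD 2. Over all tested probe sets it was 0.08 and 0.02. The fall was steepest for ccno.L and the centrin cetn4.L, whose mean NICD signals were 4.9% and 6.88% of the untreated means. It also took in plk4.L, the kinase that starts centriole duplication, the cartwheel gene cep135.L, 3 of the 7 tested genes of IFT and its motor, and bbs5.L and arl3.S. The 4 tested genes for gamma-tubulin, its complexes and the matrix around the centrioles did not pass in either direction, and 3 more were not tested. Of these 4 changes 3 were negative and 1 positive. Over the whole array 7093 of the 10368 tested probe sets did not pass in either direction. Among all 10368 tested probe sets, 16.2% fell and 15.3% rose in the same limma test. The median log2 change was -0.64 over the 38 genes and 0.05 over all tested probe sets. Of the 16 genes, 12 fell by at least 1 on the log2 scale, as did 1270 of all 1684 probe sets that fell, a like share. In 20 of the 38 genes both NICD arrays lay below all 4 untreated arrays, and in 0 they lay above all 4; the shares over all tested probe sets were 24.2% and 26.7%. At an unadjusted p under 0.05 in limma, 0 of the 38 genes were higher. The share of all tested probe sets at that unadjusted threshold was not counted, so this number stands without a background. With no filter on low signals 15 of the 45 genes fell and 0 rose.

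**Figure D1:**
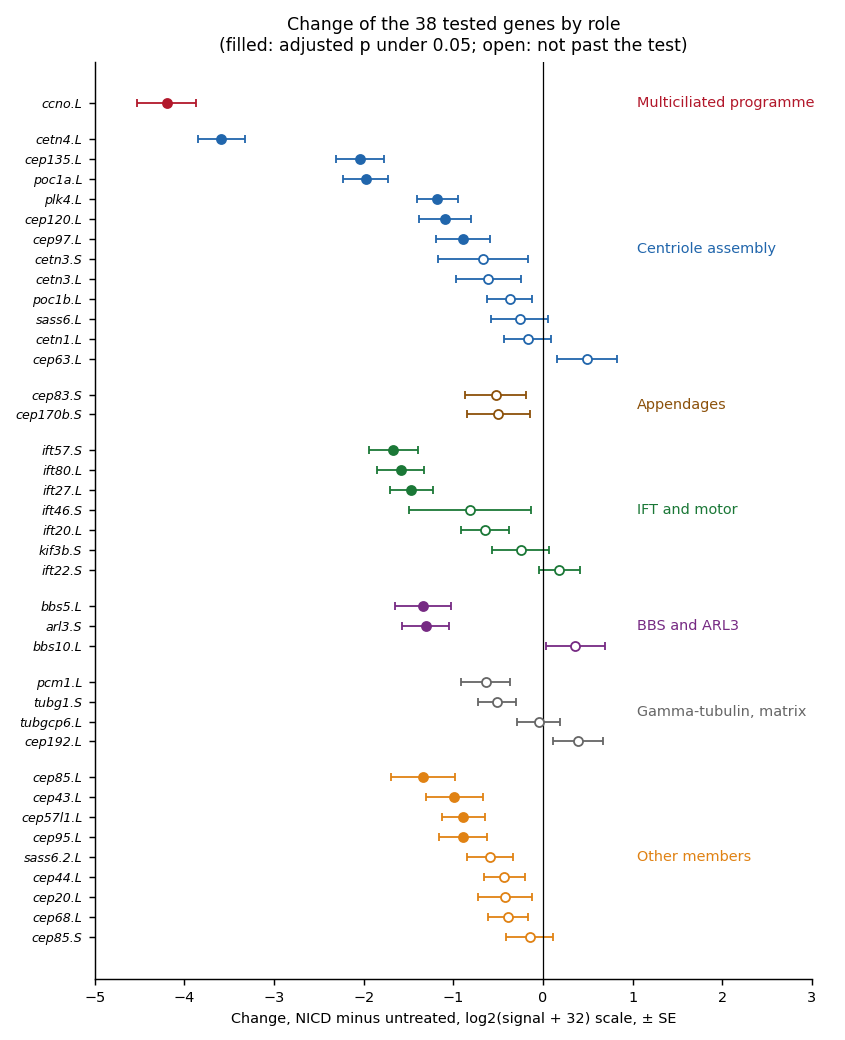
Log2 change (NICD minus untreated, horizontal axis, log2(signal + 32) scale) of the 38 tested genes, 1 per line and grouped by role, with bars for ± 1 SE; filled points passed the limma test and open points did not. All 16 filled points lie left of 0, from -4.2 for ccno.L to -0.89, and the gamma-tubulin and appendage groups hold open points only.

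Cyclin O, the product of ccno, is needed for the mass production of centrioles in multiciliated cells. The ccno.L signal was 234.2 and 85.1 in NICD explants, against 2716.3, 4281.7, 3006.3 and 3037.3 in untreated explants. The groups were far apart, with both NICD arrays more than 10-fold below the lowest untreated array. The log2 change was -4.2 ± 0.33 (SE; adjusted p = 2.04e-05 in limma), the 25th lowest of all 10368 tested probe sets. It was -3.69 on day 1 and -4.7 on day 2. The other gene of this role, myb.S, which encodes a transcription factor used by multiciliated cells and by dividing progenitors, was below the filter on low signals and was not tested.

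Of the 12 genes for centriole assembly, all of which were tested, 6 fell, 0 rose and 6 did not pass, with a median log2 change of -0.78. Centrins are small calcium-binding proteins in the lumen of centrioles, and cetn4 is a centrin gene known in mouse from ciliated tissues. The cetn4.L signal was 165.4 and 100.1 in NICD explants, against 1620.4, 1940.0, 2424.0 and 1734.5 in untreated explants. The NICD arrays lay far below every untreated array, with a log2 change of -3.59 ± 0.26 (SE; adjusted p = 1.25e-05 in limma). The change was -3.19 on day 1 and -3.98 on day 2.

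The other centrins on the array did not pass the test, although cetn3.S did with the processing day as a block (adjusted p = 0.0378 in limma). The cetn3.S signal was 1178.4 and 2581.0 in NICD explants, against 1343.3, 2175.5, 5147.1 and 4039.5 in untreated explants, and cetn3.L had 614.9 and 689.8, against 565.7, 880.2, 1624.8 and 1266.3. The groups overlapped for both copies, and the day 2 untreated arrays were the highest. The log2 change was -0.67 ± 0.5 for cetn3.S and -0.61 ± 0.36 for cetn3.L (SE; adjusted p = 0.339 and 0.235 in limma). The change of cetn1.L was -0.17 ± 0.26 (SE; adjusted p = 0.658 in limma), and its other probe set differed in sign at 0.09.

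Cep135 is a protein of the cartwheel, the scaffold that gives a new centriole its symmetry. The cep135.L signal was 92.0 and 66.5 in NICD explants, against 290.0, 475.7, 514.9 and 451.0 in untreated explants. The log2 change was -2.04 ± 0.27 (SE; adjusted p = 0.000366 in limma), with -1.71 on day 1 and -2.38 on day 2, and the groups did not overlap. Neither tested gene for its cartwheel partner Sass6 passed. The sass6.L signal was 396.1 and 399.2 in NICD explants, against 329.7, 379.6, 755.2 and 564.0 in untreated explants. Both NICD values fell within the untreated range, and the log2 change of -0.26 ± 0.32 did not pass (SE; adjusted p = 0.573 in limma). A related gene, sass6.2.L, had a log2 change of -0.59 ± 0.26 that did not pass (SE; adjusted p = 0.111 in limma).

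Poc1 proteins keep the centriole wall stable. The poc1a.L signal was 305.4 and 241.1 in NICD explants, against 1049.0, 1441.6, 1282.6 and 948.9 in untreated explants, with no overlap. Its log2 change of -1.98 ± 0.25 (SE; adjusted p = 0.000266 in limma) was nearly equal on the days, at -1.9 and -2.06. The related poc1b.L changed by -0.37 ± 0.25 and did not pass (SE; adjusted p = 0.289 in limma).

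Plk4 is the kinase that sets off the formation of each new centriole. The plk4.L signal was 313.9 and 333.0 in NICD explants, against 668.3, 793.1, 942.0 and 716.5 in untreated explants. The log2 change was -1.18 ± 0.23 (SE; adjusted p = 0.0032 in limma) and almost the same on day 1 (-1.14) and day 2 (-1.23). The NICD arrays were close to each other and lay well below every untreated array.

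The remaining genes of centriole assembly had smaller changes. Cep120 takes part in centriole elongation, and cep120.L fell by 1.09 ± 0.29 on the log2 scale (SE; adjusted p = 0.0164 in limma). Its change was -0.54 on day 1 and -1.65 on day 2, and without NICD 2 the adjusted p in limma was 0.196. Cep97 works with Ccp110 in a cap that holds back growth of a cilium from the centriole, and cep97.L fell by 0.89 ± 0.3 (SE; adjusted p = 0.0424 in limma), while its other probe set changed by -1.02 (adjusted p = 0.015 in limma). The call for the cep97.L probe set with the higher mean ended without either NICD array and without untreated 1, 2 or 3, each left out in turn (adjusted p in limma between 0.0648 and 0.2). The gene cep63.L, whose mammalian product recruits Cep152 to the parent centriole, had the highest change among the 38 genes, 0.49 ± 0.33 (SE), which did not pass (adjusted p = 0.283 in limma). Its change was 0.9 on day 1 and 0.09 on day 2.

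**Figure D2:**
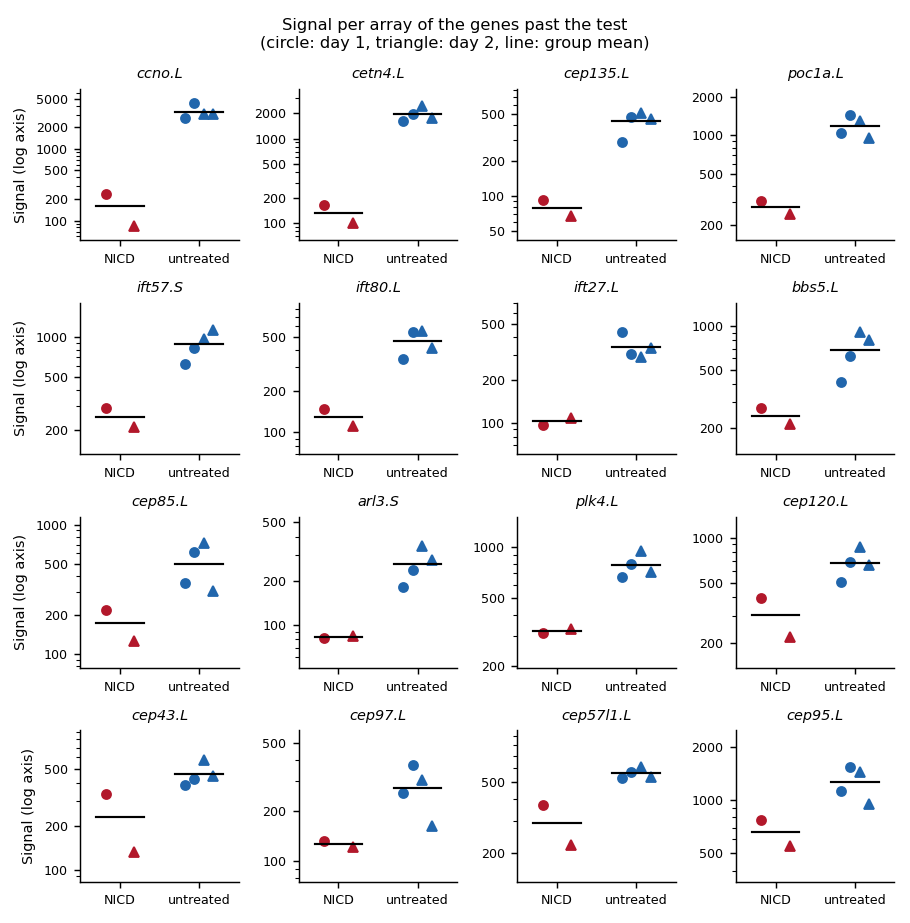
Signal per array (vertical log axes, 1 panel per gene, range set per panel) of the 16 genes that passed the limma test, with NICD arrays left and untreated arrays right, circles for day 1, triangles for day 2 and a line at each group mean. In every panel both NICD arrays lie below all 4 untreated arrays; for ccno.L they are far apart, and for cep43.L NICD 1 (333.5) lies close to untreated 1 (387.8).

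Appendages are spokes near the outer end of a centriole, and the distal ones dock it to the membrane. The 2 genes of the appendage group on the array did not pass. Cep170b, a relative of the appendage protein Cep170, had the higher mean: cep170b.S showed 623.4 and 408.3 in NICD explants, against 448.4, 658.3, 1162.9 and 819.9 in untreated explants. The groups overlapped, and the log2 change of -0.5 ± 0.35 (SE; adjusted p = 0.301 in limma) was made of 0.19 on day 1 and -1.2 on day 2. For cep83.S, which encodes a component of the distal appendages, the log2 change was -0.53 ± 0.34 (SE; adjusted p = 0.266 in limma).

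Of the 8 genes for IFT and its motor, 7 were tested, of which 3 fell, 0 rose and 4 did not pass. Their median log2 change was -0.81. All of the IFT genes among them encode parts of the IFT-B complex, which carries cargo toward the tip of the cilium. The ift57.S signal was 292.7 and 210.8 in NICD explants, against 619.2, 825.0, 957.4 and 1123.3 in untreated explants. The groups did not overlap, with a log2 change of -1.67 ± 0.27 (SE; adjusted p = 0.0014 in limma). That of day 2 (-2.14) was larger in size than that of day 1 (-1.2).

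For ift80.L the signal was 149.6 and 111.3 in NICD explants, against 345.2, 541.7, 553.9 and 410.8 in untreated explants. The log2 change was -1.59 ± 0.26 (SE; adjusted p = 0.00127 in limma), with -1.36 on day 1 and -1.83 on day 2. Ift27 is a small GTPase of the complex that links it to the BBSome. The ift27.L signal was 96.4 and 108.3 in NICD explants, against 439.8, 306.2, 290.0 and 339.7 in untreated explants. Its log2 change of -1.47 ± 0.24 (SE; adjusted p = 0.00119 in limma) was -1.64 on day 1 and -1.3 on day 2. So here, as for the cep97.L probe set with the higher mean, the day 1 change was the lower. The other cep97.L probe set went the other way, with -0.62 on day 1 and -1.42 on day 2.

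For ift46.S the signal was 93.6 and 502.9 in NICD explants, against 233.8, 186.5, 743.6 and 909.5 in untreated explants. The NICD array of each day lay below both untreated arrays of its day, but all 3 arrays of day 2 lay above all 3 of day 1, and the log2 change of -0.81 ± 0.68 did not pass (SE; adjusted p = 0.4 in limma). For ift20.L, whose product also sits at the Golgi, the signal was 441.6 and 401.5 in NICD explants, against 560.9, 524.6, 887.5 and 806.1 in untreated explants. The groups did not overlap, and the log2 change of -0.65 ± 0.27 missed the threshold (SE; adjusted p = 0.0902 in limma). The GTPase gene ift22.S changed by 0.18 ± 0.23 and kif3b.S, a motor subunit of the kinesin that drives IFT, by -0.25 ± 0.32 (SE; adjusted p = 0.595 and 0.601 in limma). The gene for the partner subunit, kif3a.L, was not tested.

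Of the 4 genes for the BBSome and ciliary small GTPases, 3 were tested, and 2 fell. Bbs5 is a subunit of the BBSome that binds membrane lipids. The bbs5.L signal was 273.3 and 212.4 in NICD explants, against 416.0, 622.9, 903.7 and 800.1 in untreated explants. The log2 change was -1.34 ± 0.31 (SE; adjusted p = 0.00811 in limma), with -0.83 on day 1 and -1.85 on day 2; without NICD 2 the adjusted p in limma was 0.0916. The groups did not overlap, and the untreated arrays of day 2 were higher than those of day 1.

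Arl3 is a GTPase that releases lipid-modified proteins inside the cilium. The arl3.S signal was 81.4 and 83.6 in NICD explants, against 179.9, 235.2, 342.2 and 277.3 in untreated explants. The NICD arrays differed little, and the log2 change of -1.31 ± 0.26 (SE; adjusted p = 0.00414 in limma) was -1.07 on day 1 and -1.56 on day 2. The chaperonin-like gene bbs10.L, whose mammalian product helps to assemble the BBSome, changed by 0.36 ± 0.33 and did not pass (SE; adjusted p = 0.449 in limma). Its relative bbs12.L was not tested.

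None of the 4 tested genes of 7 for gamma-tubulin and the pericentriolar matrix, the protein cloud from which microtubules grow, passed the test, and their median log2 change was -0.28. Pcm1 builds the granules, called centriolar satellites, that surround the centrosome. The pcm1.L signal was 1575.8 and 943.1 in NICD explants, against 1470.8, 1887.8, 2328.7 and 2093.9 in untreated explants. NICD 1 lay within the untreated range and NICD 2 below it, with a log2 change of -0.64 ± 0.27 (SE; adjusted p = 0.102 in limma). It was -0.08 on day 1 and -1.2 on day 2, and without NICD 1 the adjusted p in limma was 0.0487. For tubg1.S, which encodes gamma-tubulin, the nucleator of microtubules, the NICD arrays (533.6 and 503.4) lay below all untreated arrays (685.4 to 865.4), but the log2 change of -0.51 ± 0.21 missed the threshold (SE; adjusted p = 0.0979 in limma). The change of tubgcp6.L, a gene of the gamma-tubulin ring complex, was -0.05 ± 0.24, and that of cep192.L, which recruits the matrix in mitosis, was 0.39 ± 0.28 (SE; adjusted p = 0.884 and 0.319 in limma). The genes tubg1.L, tubgcp2.L and tubgcp3.S were not tested.

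The other 10 genes, nearly all with CEP names, act at different places of the centrosome; 9 were tested, 4 fell and 5 did not pass, with a median log2 change of -0.59. The cep85.L signal was 219.3 and 124.8 in NICD explants, against 353.4, 614.0, 720.9 and 304.4 in untreated explants. Its product is a centrosome protein that in human cells restrains the kinase Nek2, and its log2 change was -1.34 ± 0.36 (SE; adjusted p = 0.0176 in limma). Untreated 1 and 4 were nearest to the NICD arrays, and without NICD 2 the adjusted p in limma was 0.188.

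Cep43, also called FOP, is a centriolar protein needed for cilium formation. The cep43.L signal was 333.5 and 131.8 in NICD explants, against 387.8, 422.6, 574.9 and 443.2 in untreated explants. NICD 1 lay close to the untreated arrays and NICD 2 far below them, so that the log2 change of -0.99 ± 0.32 (SE; adjusted p = 0.04 in limma) was -0.26 on day 1 and -1.71 on day 2. Its call ended without NICD 2 (adjusted p = 0.416 in limma) and without untreated 2, untreated 3 or untreated 4 (0.0574, 0.0791 and 0.0689).

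The cep57l1.L signal was 370.3 and 220.2 in NICD explants, against 526.4, 569.2, 607.0 and 534.7 in untreated explants. Cep57l1 is a relative of the centrosome protein Cep57, and the log2 change was -0.89 ± 0.24 (SE; adjusted p = 0.0193 in limma), with -0.53 on day 1 and -1.25 on day 2. For cep95.L the signal was 774.2 and 553.0 in NICD explants, against 1130.0, 1547.8, 1437.6 and 947.6 in untreated explants. The groups did not overlap, and the log2 change was -0.89 ± 0.27 (SE; adjusted p = 0.0272 in limma). The other cep95.L probe set changed by -0.48 and did not pass (adjusted p = 0.186 in limma). Without NICD 2 the adjusted p in limma was 0.211 for cep57l1.L and 0.229 for cep95.L, and the call for cep95.L also ended without untreated 2 (0.0632) or untreated 3 (0.0554).

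The members of this group that did not pass had log2 changes between -0.59 and -0.15. They include cep44.L (-0.43), cep20.L (-0.42), a relative of cep43, and cep68.L (-0.39), whose product belongs to the linker between the centrioles of a pair. For cep44.L and cep68.L both NICD arrays nevertheless lay below all untreated arrays. The 7 genes that were not tested, with cep70.L as the last of them, had signals between 3.4 and 114.1 over the 6 arrays. Among them both NICD arrays lay above all untreated arrays for kif3a.L and below all of them for myb.S and bbs12.L.

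Copies of the same gene could be compared in 2 cases, in a limma fit of the .L minus .S difference over the 719 pairs of copies on the array of which both were tested. For cep85 the signal of the .L copy was 0.779 and 0.41 times that of the .S copy in NICD explants, against 1.31, 2.07, 1.5 and 1.02 times in untreated explants. The .S copy itself had 281.6 and 304.5 in NICD explants, against 270.4, 296.5, 481.7 and 299.4 in untreated explants, a log2 change of -0.15 ± 0.26 that did not pass (SE; adjusted p = 0.697 in limma). The change of cep85.L was below that of cep85.S, with a difference of -1.19 ± 0.34 (SE; adjusted p = 0.0393 in limma), and 17.1% of all pairs passed this test in either direction. That call rests on most of the arrays: leaving out NICD 2 or untreated 1, 2 or 3 ended it, with a difference between -1.23 and -0.79 (adjusted p in limma from 0.0689 without untreated 1 to 0.322 without NICD 2). Without NICD 1 the difference was -1.58, with an adjusted p in limma of 0.0506 when the filter on low signals was applied anew and 0.0466 when the tested probe sets were held fixed. For cetn3 the difference between the copies was 0.06 ± 0.32 and did not pass (SE; adjusted p = 0.919 in limma).

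**Figure D3:**
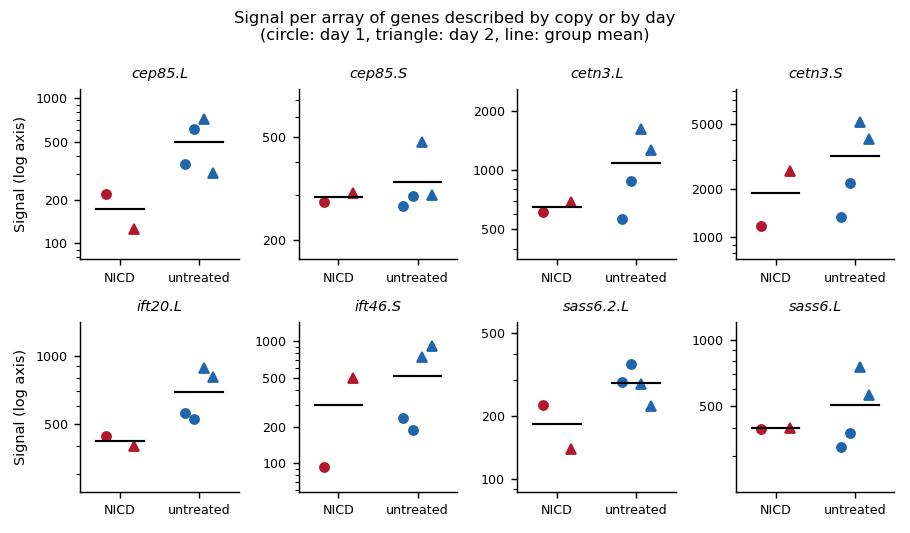
Signal per array (vertical log axes, 1 panel per gene, range set per panel) of the copies of cep85 and cetn3 and of ift20.L, ift46.S, sass6.L and sass6.2.L. NICD arrays are left and untreated arrays right, with circles for day 1, triangles for day 2 and a line at each group mean. The cep85.S panel shows untreated 3 (481.7) alone above the other arrays, and in the ift46.S panel all 3 triangles lie above all 3 circles.

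The untreated arrays of the 2 days lay apart for many of these genes, as they did for many probe sets of the whole array. In 17 of the 38 genes both untreated arrays of day 2 lay above both untreated arrays of day 1, and in 2, kif3b.S and sass6.2.L, both lay below. Over all tested probe sets the shares were 29.7% and 25.5%. The median log2 difference between the untreated arrays of day 2 and day 1 was 0.23 for the 38 genes and 0.03 for all tested probe sets. Both untreated arrays of day 2 lay above those of day 1 in 4 of the 16 genes that fell and in 13 of the 22 that did not pass. Among all 1684 probe sets that fell, this held for 599. The main fit has no term for the day, so such a gap widens the error and by itself makes a pass less likely. The contrast between the 16 and the 22 genes is therefore not independent of the test, and the part of the gap in it was not tested. The log2 difference between the untreated arrays of the days was 1.83 for ift46.S, 1.4 for cetn3.S, 0.99 for cetn3.L and 0.9 for bbs10.L.

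Each day held 1 NICD and 2 untreated arrays, so a limma fit with the day as a block kept the sizes of the changes and altered their errors. With it 20 of the 38 genes fell and 0 rose, against 19.8% and 20.4% of all tested probe sets. The 4 additional genes, named after their values were seen, were ift46.S (adjusted p = 0.0114 in limma), cetn3.S (0.0378), ift20.L (0.0403) and sass6.2.L (0.0463). In 29 of the 38 genes (76.3%) the change was negative on both days, against 36% of all tested probe sets. The median change of the 38 genes was -0.43 on day 1 and -0.95 on day 2, against 0.08 and 0.02 over all tested probe sets. The change was lower on day 2 than on day 1 in 32 of the 38 genes (84.2%), against 56% of all tested probe sets. Among the genes that fell it was lower on day 2 in 14 of 16 (87.5%), against 77% of all probe sets that fell. The day 2 comparison holds NICD 2, and the day 1 comparison holds NICD 1, the array with the highest gapdh ratio; the part of day, array and RNA quality in this gap was not tested.

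**Figure D4:**
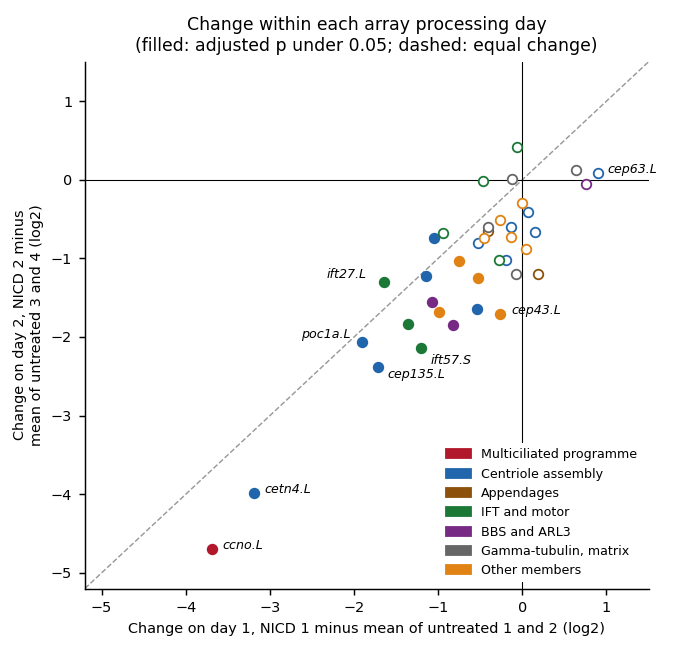
Log2 change of the 38 tested genes on day 1 (NICD 1 minus the mean of untreated 1 and 2, horizontal axis) and on day 2 (NICD 2 minus the mean of untreated 3 and 4, vertical axis), coloured by role, filled where the gene passed the limma test over all arrays; the dashed line marks equal change. Most points (32 of 38) lie below the dashed line, ift27.L lies above it, and cep43.L, at -0.26 and -1.71, lies far from it.

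Other genes of the same structures, which the naming rule does not reach, were read from lists of 90 gene names; 36 matching symbols were on the array and 32 were tested. Of these, 9 fell, 4 rose and 19 did not pass, with a median log2 change of 0.03; over all tested probe sets the shares were 16.2% lower and 15.3% higher. The lists within these 90 names are small, and their counts are a description beside those shares. Among regulators of multiciliated cells 4 of 10 tested genes fell and 2 rose. The transcription factor gene foxn4.S, which acts in multiciliated cells of Xenopus, had signals of 85.7 and 57.3 in NICD explants, against 479.6, 700.3, 710.1 and 549.7 in untreated explants. Its log2 change was -2.63 ± 0.25 (SE; adjusted p = 5.87e-05 in limma). The gene fbxo43.L, an inhibitor of the anaphase-promoting complex known from the arrest of the egg, fell to 111.1 and 104.8 in NICD explants, against 373.3, 617.5, 808.5 and 863.8 in untreated explants, a log2 change of -2.25 ± 0.32 (SE; adjusted p = 0.000572 in limma). The cyclin gene ccna1.S fell by 1.84 ± 0.26 on the log2 scale (SE; adjusted p = 0.000625 in limma), and its copy ccna1.L also fell.

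Both copies of geminin, an inhibitor of DNA replication licensing and a relative of the multicilin protein that starts the multiciliated programme, went the other way. The gmnn.S signal was 4003.3 and 6592.1 in NICD explants, against 255.3, 240.2, 468.0 and 391.0 in untreated explants, a log2 change of 3.85 ± 0.32 (SE; adjusted p = 2.59e-05 in limma). The gmnn.L signal was 4308.4 and 4924.0, against 343.5, 369.4, 434.9 and 267.1, a log2 change of 3.61 ± 0.24 (SE; adjusted p = 8.46e-06 in limma). Geminin is also a gene of early neural tissue. The ciliary transcription factor gene rfx2.S changed by -0.38 and did not pass (adjusted p = 0.308 in limma), as did e2f4.S (0.21) and both copies of tfdp1 (-0.04 and -0.14).

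Of 11 tested genes for the transition zone, the gate at the base of the cilium, and for ciliary traffic, 4 fell and 0 rose, with a median of 0.0. The GTPase gene arl6, whose product recruits the BBSome to membranes, had 34.1 and 66.8 in NICD explants, against 105.1, 182.5, 401.2 and 258.6 in untreated explants. Its log2 change was -1.61 ± 0.41 (SE; adjusted p = 0.0132 in limma), but 0.114 was the adjusted p in limma without NICD 1. The transition zone genes b9d2.L and tmem237.L also fell, with log2 changes of -1.3 ± 0.24 and -1.26 ± 0.24 (SE; adjusted p = 0.00295 and 0.0029 in limma). The traffic gene rab8a.S also fell (-0.84 ± 0.23, SE; adjusted p = 0.0187 in limma), a call that ended without NICD 2 (0.176).

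The 2 tested genes of other IFT parts, cluap1.L and ttc30a.S, did not pass (log2 change -0.4 and 0.08). Of 9 tested centrosome genes outside the naming rule, 2 rose, 1 fell and 6 did not pass, with a median of 0.19, counts near the shares over all tested probe sets. The mitotic kinase gene plk1.S had 2506.5 and 3763.1 in NICD explants, against 1262.3, 1272.4, 1501.6 and 1321.4 in untreated explants, a log2 change of 1.18 ± 0.23 (SE; adjusted p = 0.00351 in limma). The microtubule-anchoring gene ninl.L rose by 0.92 ± 0.29 (SE; adjusted p = 0.0361 in limma), and that call ended without NICD 1, NICD 2, untreated 1 or untreated 4 (between 0.0556 and 0.168); the call for plk1.S ended without NICD 2 (0.0569). The centrosome kinase gene nek2.S fell to 1791.9 and 1182.9 in NICD explants, against 3758.7, 3531.6, 5425.6 and 4179.9 in untreated explants, with a log2 change of -1.5 ± 0.25 (SE; adjusted p = 0.00159 in limma).

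**Figure D5:**
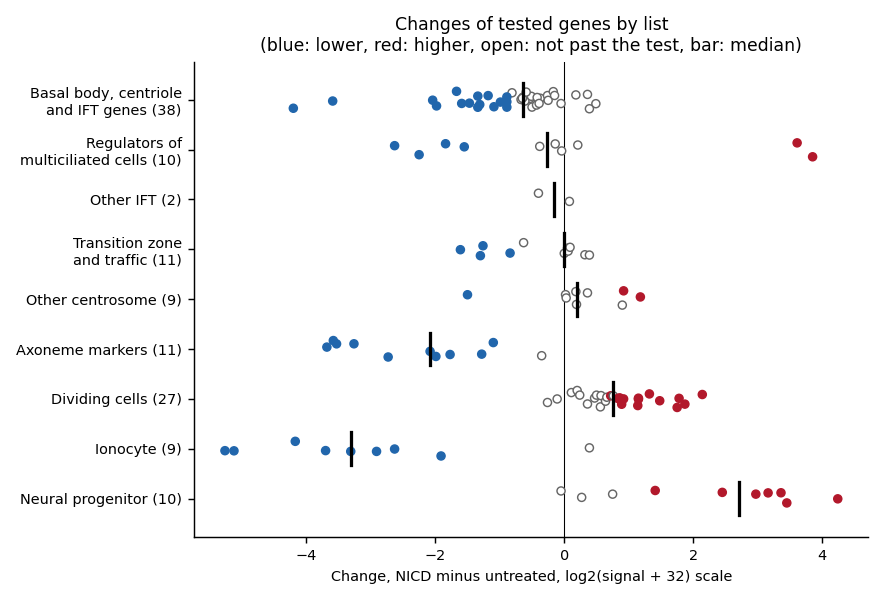
Log2 change (NICD minus untreated, horizontal axis) of each tested gene in 9 lists, 1 point per gene with random vertical scatter; blue points fell, red points rose, open points did not pass the limma test, and the bar marks the list's median. The median of the basal body, centriole and IFT genes (-0.64) lies between those of the axoneme genes (-2.08) and the dividing cell genes (0.76). The medians of the lists of pathway genes outside the naming rule also lie between these.

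Markers of the cell types that such explants can hold moved in different directions, and most of those tested for differentiated skin cells fell. The shares over all tested probe sets were 16.2% lower and 15.3% higher. Of 11 tested axoneme genes, which encode the moving parts of the cilium, 10 fell, with a median log2 change of -2.08 and summed signals of 15014 to 17978 in NICD explants, against 29725 to 41765 in untreated explants. They include cfap52.S (-3.68), spag6.L (-3.58) and the tektin tekt2.S (-3.53), and tubb4b.L (-0.35) was the 1 that did not pass. That gene carried most of the sum, with 12111 to 13888 in NICD explants, against 12310.2 to 23491 in untreated explants; without it the sums were 2903 to 4089.7, against 17415 to 18274. Of 9 tested ionocyte genes 8 fell (summed signals 1656 to 1902, against 11164 to 14929.8), as did 3 of 5 goblet and small secretory cell genes (2496 to 5059.9, against 27065 to 40152). Most of the untreated sum of the goblet and small secretory list came from itln1.L. Without that gene the sums were 2372 to 4234, against 7785 to 9081. Of 12 epidermis genes 9 fell and 1, the adhesion gene epcam.L, rose (45261 to 45877, against 64026 to 94266, and without epcam.L 21298 to 30235, against 54158 to 78361). In these 4 lists 0 genes were under 32 on every array.

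Of 10 tested neural progenitor genes 7 rose and 0 fell, with a median of 2.71 and summed signals of 10831 to 13425 in NICD explants, against 1810.1 to 2379 in untreated explants. Of 27 genes of dividing cells 14 rose and 0 fell, with a median of 0.76 and summed signals of 44759 to 50791, against 24741 to 28438. Over all tested probe sets 15.3% rose and 16.2% fell. Among neuron, muscle and endoderm markers 1 of 4, 2 of 5 and 1 of 2 tested genes fell and 0 rose, lists too small to set against those shares. Their summed signals were 4651 to 4919, 893 to 1129 and 494 to 722 in NICD explants, against 6231 to 7553, 1649.9 to 2081 and 789.9 to 2046 in untreated explants. Without their brightest genes, syt1.L for neuron and ckm.L for muscle, the sums of these 2 lists overlapped between the groups (1522 to 2333, against 1361 to 1879, and 693 to 833, against 708 to 1294). The part of each of these cell types in the changes of the basal body, centriole and IFT genes was not tested.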

How the data were processed

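Total RNA of 6 samples, 2 NICD and 4 untreated, was labelled as biotinylated cRNA, per the labels' protocols, and read on Affymetrix arrays for Xenopus laevis. The deposited values are signal intensities on a linear scale, made by the authors with MAS5, per the submitters' processing notes, with no version stated there. Because MAS5 takes off the signal of mismatch probes, low values are noisy. The trimmed mean of each array was between 499.2 and 499.7, so the arrays had been scaled alike, and they were not scaled again. Day, chip lot (1 for all arrays) and fluidics module were read from the deposited experiment files, whose other settings were not used.

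Of 15611 probe sets, 120 controls were left out. Of the 15491 left, 9304 had 1 symbol in the platform annotation, which can be old, 195 had several and 5992 had none. The gene identifiers of 9227 of the probe sets with 1 symbol were found in RefSeq. Those of all 45 members were among them, with the same symbols there. Members and all lists were matched on the platform symbols, which were not replaced. The probe set that names both copies of cetn3 was not used. Probe sets entered the test when at least 2 arrays had them above the array's own 40th percentile. Their log2(signal + 32) values went into a limma fit (version 3.58.1 in R 4.3.3; lmFit and trended eBayes, 2-sided, without covariates) of all 10368 probe sets, adjusted by Benjamini-Hochberg. Figures were drawn with matplotlib 3.10.9 and tables made with pandas 2.3.3 (numpy 2.4.6, Python 3.11.15). The procedure was tested on simulated data.

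The members and all lists were chosen with earlier results of these data known. Signals per array are given for up to 4 genes per role with the largest changes past the test, for the gene with the highest mean where none passed, for up to 3 genes in each direction of the other lists, and for pairs of copies; the signals and values of sass6.L, sass6.2.L, ift46.S, ift20.L, tubg1.S, cfap52.S, spag6.L, tekt2.S, tubb4b.L, epcam.L, syt1.L and ckm.L were added after they were seen. No promoter, protein or probe sequence was used here. Alternatives were other pseudocounts, filters, normalizations and eBayes settings, array weights, day and replicate as blocks, each array left out and the mean over probe sets. Leaving out arrays while keeping the full set of tested probe sets was chosen after seeing the data, as were marker sums without the brightest gene.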

Additional observations from a re-analysis of the deposited data

Results flagged for a closer look

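The cep85.S signal of untreated 3 was 482, far above the other 3 untreated arrays, which lay between 270.4 and 299.4. Its gap to the nearest of them was 0.863 of the range of the 4 untreated arrays, above Dixon's critical value for 4 samples. It was the only gene of the 38 tested with such an array among the untreated samples; chance flags about 1 in 20 groups. Without untreated 3 the difference in change between cep85.L and cep85.S was -1.16 (adjusted p = 0.0707 in limma), against -1.19 with all arrays (0.0393 in limma).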

How the results depend on the processing

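The count of basal body, centriole and IFT genes that rose was 0 in all alternatives. The count that fell was 16 of 38, and with 1 untreated array left out it lay between 13 and 16. Over the whole array 2832 to 3090 probe sets passed in those fits, with the filter applied anew. The count was lowest without NICD 2, also with the set of tested probe sets held fixed. The calls that ended there were those of bbs5.L, cep120.L, cep43.L, cep57l1.L, cep85.L, cep95.L and cep97.L. The other 9 genes passed in all 26 alternative fits: ccno.L, cetn4.L, cep135.L, poc1a.L, plk4.L, ift57.S, ift80.L, ift27.L and arl3.S. With the day as a block 20 fell, with no filter on low values 15 of 45, at an adjusted p under 0.10 18, and with a 2-fold minimum 12. In the fit with the replicate block 13 fell. Calls over the whole array moved too. Of all 10368 tested probe sets, 3275 passed in either direction in the main fit. This number was 4172 with the day block, 4133 at an adjusted p under 0.10, 2286 with the 2-fold minimum and 3016 with the replicate block. With no filter it was 3220 of 15491. Without NICD 2 fewer probe sets passed over the whole array as well. In the replicate block untreated 3 and untreated 4 each stood alone, so its changes rested on the arrays numbered 1 and 2. NICD 2 and untreated 2 were processed on different days. The labels do not say whether the replicate numbers pair the samples. The deviations of same-numbered arrays from their group means correlated at 0.198 and -0.231. These values cannot decide the pairing, because the deviations of 2 NICD arrays mirror each other. Of the genes outside the naming rule, 4 rose, with 2 without NICD 2 and between 2 and 4 with any 1 array left out. Of the pairs of copies, 1 (cep85) passed, against 0 with the replicate block and between 0 and 1 with 1 array left out. The cause of these differences was not tested. With 1 NICD array left, it was assumed to vary like the untreated arrays. No change of a gene past the test turned its sign in any alternative or on either day. Signals near background limit what can be said of the 7 untested genes.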
